A study of Mus musculus with 10 samples.

Results

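The genes of the constitutive proteasome were compared between cardiomyocytes, the contracting cells of heart muscle, of Actn2 knockout and Actn2 heterozygous mice. The members were taken by name: every gene in the table called Psma, Psmb, Psmc, Psmd or Psme followed by a number, without Psmb8, Psmb9, Psmb10, Psme1 and Psme2, whose products are induced by interferon. These 5 were left out because 1 heterozygote of these data was high in them, and they are described separately. The rule found 38 of 23337 genes, and 36 of them had enough counts to be tested. Heterozygotes (Actn2F/+) carried 1 floxed and 1 normal allele, and knockouts (Actn2F/F) carried 2 floxed alleles. All 10 mice, 5 in each group, received the AAV9-cTNT-Cre virus on postnatal day 1, and cells were taken on postnatal day 14. In this virus a cardiac troponin T promoter drives the recombinase Cre, so the deletion is limited to cardiomyocytes that took up virus, and the heterozygotes received Cre too. Cells were released with collagenase and sorted by fluorescence. The RNA was polyadenylated.

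The proteasome is the main protease of the cytosol and nucleus for proteins tagged with ubiquitin. Its core particle is a barrel of stacked rings: outer alpha rings that gate the entrance, and inner beta rings that hold the proteolytic sites. A regulatory particle on each end of the barrel binds ubiquitin chains through its lid and base, removes them, and threads the substrate into the core with a ring of ATPases. In heart muscle this system degrades damaged and unassembled sarcomere proteins, and when its activity falls the transcription factor encoded by Nfe2l1 can raise the subunit genes together.

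None of the proteasome subunit genes passed the test for a difference between the groups, while the gene that was targeted fell. Actn2 was at 3366, 3454, 3474, 2930.1 and 2677 CPM in heterozygotes 1 to 5 and at 1286, 1249.9, 1145, 1182 and 1219.8 CPM in knockouts 1 to 5. Every knockout lay below every heterozygote, with 3180.5 ± 358 CPM in heterozygotes and 1217 ± 55.3 CPM in knockouts (SD, n = 5 per group). By edgeR's quasi-likelihood test with Benjamini-Hochberg adjustment over 11870 tested genes, the log2 fold change of Actn2, at chr13:12269427-12340732 (build mm10), was −1.39 (standard error 0.0910, adjusted p = 3.48e-07). Here CPM is counts per 1000000 counts of the library, whose size was scaled by TMM, and fold changes are knockout against heterozygote. Of the 36 proteasome subunit genes tested, 0 rose and 0 fell at an adjusted p below 0.05, where 18.9% of all tested genes passed (10.2% higher and 8.64% lower). Among the 9748 genes whose mean reached 5 CPM, which include all 36, 21.3% passed and again 0 members. At an unadjusted p below 0.05 the count was also 0 of 36, against 32.4% of all tested genes. No member had groups that did not overlap, which 14.7% of all tested genes had. DESeq2 called 0 members, where it called 22.2% of 11837 genes, and put 1 member at an unadjusted p below 0.05. Limma-voom with sample weights called 1 member, Psme4, where it called 21.3% of all tested genes.

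Total counts ran from 8086656 to 25237696 per animal. The summed level of 8 cardiomyocyte markers was 105882 to 134501 CPM in heterozygotes and 97713 to 122702 CPM in knockouts, the highest sum of the marker lists, and 2 of these 8 markers fell (Tnni3 and Atp2a2). All 10 endothelial markers had a negative log2 fold change and 1 fell (Egfl7), with sums of 2009 to 3244 CPM in heterozygotes and 2034 to 2288 CPM in knockouts. The 6 smooth muscle and pericyte markers summed to 206 ± 42.8 CPM in heterozygotes and 283 ± 33.3 CPM in knockouts (SD, n = 5), with 3 below and 3 above 0 and 1 called higher (Cspg4). Their part in the members' values was not tested. Of 7 tested fibroblast markers 0 were called. With the mean log2 CPM of the endothelial markers as a covariate, 0 proteasome subunit genes were called. That fit called 9.15% of all tested genes, against 18.9% without the covariate. Heterozygote 3 stood apart in genes induced by interferon: 10 such markers summed to 706 CPM in it and to 27.8 to 47.1 CPM in the other 9 animals. In bulk RNA, fewer cells of a type and less RNA per cell cannot be told apart.

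Sizes and intervals say how large a difference could still be. The 36 log2 fold changes ran from −0.27 (Psme4) to 0.22 (Psmd10), or 0.827-fold to 1.17-fold, with 12 above and 24 below 0 and a median of −0.03. The median over all tested genes was 0.0023. With library totals alone the median of all tested genes moved to 0.0839 and that of the members to 0.0532, and 13 of the 24 turned above 0. The median size of change without regard to sign was 0.0550 in the members and 0.224 in all tested genes. Standard errors ran from 0.0761 to 0.138, with a median of 0.0945 against 0.147 over all tested genes. All 36 of the 95% intervals, which are not adjusted for the number of genes, lay within a 1.5-fold change in either direction. The widest bounds were 0.674-fold (Psme4) and 1.39-fold (Psmd10). Of all tested genes, 6046 (50.9%) had an interval within the same limits, and 6370 (53.7%) had a fold change within the members' range. Within a 1.3-fold change lay the intervals of 31 members. The intervals of the other 5 reached past it. The 1.5-fold and 1.3-fold limits were chosen with the values known.

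**Figure D1:**
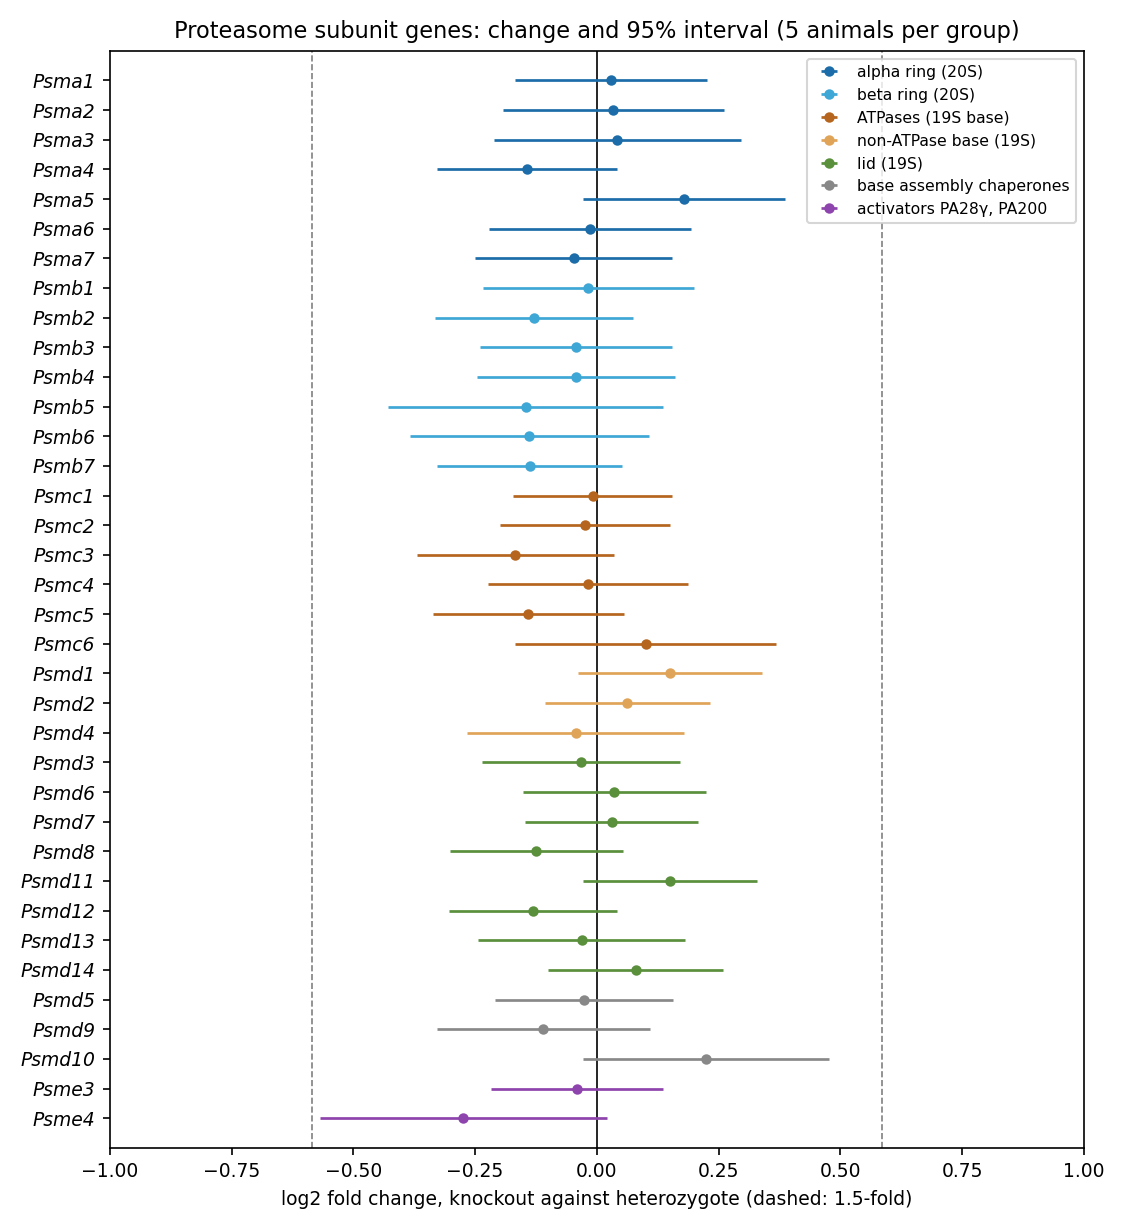
Log2 fold change of each of the 36 tested proteasome subunit genes (x axis, knockout against heterozygote, 5 animals per group) with its 95% interval, coloured by structural class. Every interval spans 0 and lies between the dashed lines at a 1.5-fold change.

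**Figure D2:**
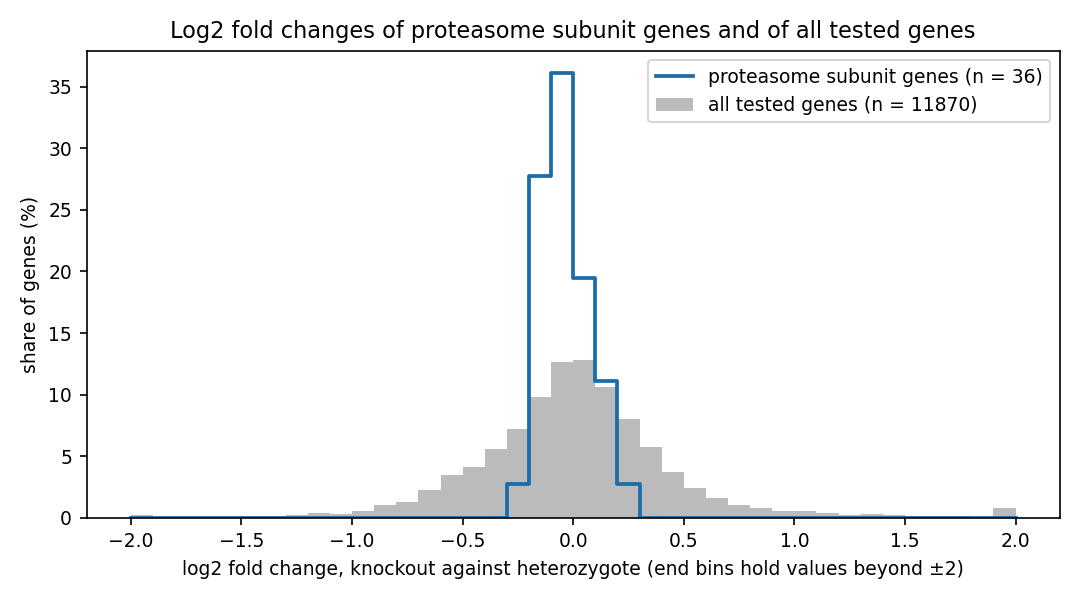
Distribution of log2 fold changes (x axis) for the 36 proteasome subunit genes and for all 11870 tested genes. The members occupy the range from −0.27 to 0.22 around a median of −0.03.

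The alpha ring, which forms the gate of the core, had 4 genes above and 3 below 0, with a median log2 fold change of 0.03 over its 7 tested members; with library totals alone, Psma6 and Psma7 were above 0 too. Psma5 was at 64.9, 61.6, 73.7, 72.4 and 79.2 CPM in heterozygotes 1 to 5 and at 79.3, 71.3, 91.2, 79.8 and 76.7 CPM in knockouts 1 to 5. Psma5, an alpha-ring subunit, was the alpha gene with the largest change: 70.4 ± 7.05 CPM in heterozygotes and 79.7 ± 7.27 CPM in knockouts (SD, n = 5), a log2 fold change of 0.18 (95% interval −0.03 to 0.39). The groups overlapped, and edgeR's adjusted p was 0.221. Psma4 had the lowest value of this ring. Psma4 was at 115, 129, 121, 126 and 129.9 CPM in heterozygotes 1 to 5 and at 115, 101, 125, 115 and 106 CPM in knockouts 1 to 5, a log2 fold change of −0.14 (standard error 0.0864, adjusted p by edgeR = 0.274). Knockout 3 lay above heterozygote 1, and knockouts 2 and 5 lay below every heterozygote. Knockouts 1 (114.95 CPM) and 4 (115.147 CPM) were in a near tie with heterozygote 1 (114.998 CPM), the lowest heterozygote. Exons of Psma4 share 45 bases with the gene AY074887 in the table.

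The beta ring holds the proteolytic sites, and its 7 tested members all had a log2 fold change below 0, from −0.15 (Psmb5) to −0.02 (Psmb1), with a median of −0.13; with library totals alone, Psmb1, Psmb3 and Psmb4 were above 0. None of the 7 passed the test. The 3 catalytic subunits of the constitutive core are Psmb6, with caspase-like activity, Psmb7, with trypsin-like activity, and Psmb5, with chymotrypsin-like activity. Psmb5 was at 83.7, 79.7, 63.4, 72.2 and 66.1 CPM in heterozygotes 1 to 5 and at 88.6, 57.1, 69.3, 58.1 and 57.5 CPM in knockouts 1 to 5. Knockout 1 was the highest of all 10 animals, knockout 3 lay within the heterozygotes' range and the other knockouts lay below it. The group means of 73.02 ± 8.65 CPM in heterozygotes and 66.1 ± 13.6 CPM in knockouts (SD) differed by less than their spread. The log2 fold change of Psmb5 was −0.15 (standard error 0.132, 95% interval −0.43 to 0.14, adjusted p by edgeR = 0.485). Psmb6 was at 265, 371, 258, 271 and 293 CPM in heterozygotes 1 to 5 and at 301, 223, 266, 266 and 268 CPM in knockouts 1 to 5. Heterozygote 2 was the highest animal, and the other heterozygotes lay within the range of the knockouts. Psmb6 had a log2 fold change of −0.14 (standard error 0.114, adjusted p by edgeR = 0.443). Psmb7 was at 158, 164, 146, 168 and 176 CPM in heterozygotes 1 to 5 and at 162, 139, 157, 142 and 137 CPM in knockouts 1 to 5. Knockouts 2, 4 and 5 lay below every heterozygote and knockouts 1 and 3 did not. Psmb7 had a log2 fold change of −0.14 (standard error 0.0888, adjusted p by edgeR = 0.310). Processed pseudogenes named after these 3 genes (Psmb5-ps, Psmb6-ps, Psmb6-ps2 and Psmb7-ps2) are annotated. No counting option for reads with several alignments is recorded, and by default the program leaves them out, so the levels of the 3 catalytic genes are uncertain, and exons of Psmb5 also share 109 bases with Mir686. Psmb1 was at 191, 182, 195, 229 and 223 CPM in heterozygotes 1 to 5 and at 203, 173, 221, 222 and 189 CPM in knockouts 1 to 5. This non-catalytic beta subunit was the closest to 0 in its ring (log2 fold change −0.02, adjusted p by edgeR = 0.930).

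Letters bound by factors that act on proteasome genes were looked for next to the start sites of the members. The sequences are RefSeq's (GRCm38.p6, the assembly behind mm10), read from 250 bases before to 50 after the start on both strands, and 31 of the 38 members had an entry. The antioxidant response element core TGACNNNGC, bound by the products of Nfe2l1 and Nfe2l2 with small MAF proteins, was in 6 of 31 (19.4%), against 15.1% of 15725 table genes with an entry. The ETS core CCGGAAG was in 12 of 31 (38.7%), against 12.7%. The NF-Y core CCAAT was in 13 of 31 (41.9%), against 42.4%. Below are 2 catalytic subunits with the first of these motifs, Psmb5 at chr14:54617996-54618115 (minus strand) and Psmb6 at chr11:70525237-70525356 (plus strand). With them are the base subunit Psmd2 at chr16:20651532-20651651 and the lid subunit Psmd11 at chr11:80428495-80428614 (both plus strand), whose ETS core is on the opposite strand. Each line runs 5′ to 3′ and ends at the base before the start, with the match in capitals.
Psmb5: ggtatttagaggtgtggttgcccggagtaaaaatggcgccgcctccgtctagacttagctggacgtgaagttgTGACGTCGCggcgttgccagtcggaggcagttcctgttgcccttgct
Psmb6: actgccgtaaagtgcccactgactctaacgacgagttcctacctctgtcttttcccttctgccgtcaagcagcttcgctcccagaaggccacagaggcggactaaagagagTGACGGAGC
Psmd2: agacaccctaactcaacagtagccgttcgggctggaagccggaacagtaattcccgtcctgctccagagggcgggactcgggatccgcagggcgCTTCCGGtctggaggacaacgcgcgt
Psmd11: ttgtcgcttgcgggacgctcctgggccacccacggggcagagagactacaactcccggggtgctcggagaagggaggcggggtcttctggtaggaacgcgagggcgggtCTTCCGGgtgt

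The matches describe letters and not bound sites. Another 7 motifs were searched. The ETS variant GGAAGTG, which can overlap CCGGAAG, was in 8 of 31 (25.8%, against 13.8%). The GC box CCCGCCC was in 15 (48.4%, against 37.7%). The interferon-stimulated response element core was in 3 (9.68%, against 3.88%), the binding site of nuclear respiratory factor 1 in 1 (3.23%, against 1.49%) and the palindrome TTCNNNGAA in 1 (3.23%, against 9.20%). TGACTCAGC and TTCCNGGAA were in 0 of 31, against 0.502% and 1.42%.

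In the base of the regulatory particle, the 6 ATPase genes, whose products unfold the substrate, had 1 log2 fold change above and 5 below 0, with a median of −0.02; with library totals alone, Psmc1, Psmc2 and Psmc4 were above 0 too. Psmc3 was the lowest. Psmc3 was at 325, 418, 335, 314 and 333 CPM in heterozygotes 1 to 5 and at 333, 290.5, 316, 309 and 288 CPM in knockouts 1 to 5. Heterozygote 2 was far above the other animals, and knockouts 2, 4 and 5 lay below every heterozygote. The groups overlapped through knockouts 1 and 3, and the log2 fold change of Psmc3 was −0.17 (standard error 0.0947, adjusted p by edgeR = 0.245). Psmc6 was the highest. Psmc6 was at 148, 109, 124, 174 and 173 CPM in heterozygotes 1 to 5 and at 164, 160.0, 156, 159.6 and 142 CPM in knockouts 1 to 5. The heterozygotes spread on both sides of the knockouts, with 146 ± 29.02 CPM in heterozygotes and 156 ± 8.60 CPM in knockouts (SD, n = 5) and a log2 fold change of 0.10 (adjusted p by edgeR = 0.635).

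The 3 other genes of the base encode the scaffolds Psmd1 and Psmd2, which dock ubiquitin receptors and substrates, and the ubiquitin receptor Psmd4. Psmd1 was at 289.6, 242, 278, 310.5 and 316 CPM in heterozygotes 1 to 5 and at 317, 334, 311, 314 and 319 CPM in knockouts 1 to 5. The knockouts were close together and heterozygote 5 reached into their range. Heterozygote 4 (310.485 CPM) was in a near tie with knockout 3 (310.516 CPM), the lowest knockout. Group values were 287 ± 29.4 CPM in heterozygotes and 319 ± 9.08 CPM in knockouts (SD, n = 5). The log2 fold change of Psmd1 was 0.15 (standard error 0.0882, 95% interval −0.04 to 0.34, adjusted p by edgeR = 0.262). Psmd4 was at 135, 189, 167, 146 and 148 CPM in heterozygotes 1 to 5 and at 146, 137, 166, 153 and 159 CPM in knockouts 1 to 5. Heterozygote 2 was again the highest, the groups overlapped, and the log2 fold change of Psmd4 was −0.04 (adjusted p by edgeR = 0.822).

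The lid had 4 genes above and 4 below 0, with a median log2 fold change of −0.000324 over 8 genes; with library totals alone, Psmd3 and Psmd13 were above 0 too. Psmd11, a lid subunit on which the joining of regulatory and core particles depends, was the highest. Psmd11 was at 108, 118, 118, 112 and 132 CPM in heterozygotes 1 to 5 and at 134, 125, 133, 132 and 127 CPM in knockouts 1 to 5. Heterozygote 5 lay among the knockouts and the other heterozygotes below them, and the log2 fold change of Psmd11 was 0.15 (standard error 0.0833, adjusted p by edgeR = 0.234). Psmd12, a scaffold subunit of the lid, was the lowest. Psmd12 was at 203, 183, 196, 206 and 213 CPM in heterozygotes 1 to 5 and at 196, 176, 184, 183 and 175 CPM in knockouts 1 to 5. Its log2 fold change was −0.13 (standard error 0.0807, adjusted p by edgeR = 0.285), with knockout 1 above heterozygotes 2 and 3 and knockout 3 above heterozygote 2. Psmd14, the lid's deubiquitinating enzyme, was at 103 ± 7.84 CPM in heterozygotes and 109 ± 5.07 CPM in knockouts (SD, n = 5).

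Psmd5, Psmd9 and Psmd10 encode chaperones that assemble the base and are not part of the finished particle. Psmd10 was at 19.8, 18.3, 20.4, 20.2 and 23.9 CPM in heterozygotes 1 to 5 and at 27.9, 20.2, 21.9, 25.04 and 25.01 CPM in knockouts 1 to 5. Psmd10 at chrX:140948425-140956711, known as gankyrin, had the highest log2 fold change of the members (0.22, standard error 0.118, unadjusted p = 0.0786, adjusted p by edgeR = 0.209). Knockout 2 and heterozygote 5 kept the groups overlapping. Psmd9 was at 35.5, 37.9, 33.3, 29.6 and 37.98 CPM in heterozygotes 1 to 5 and at 34.3, 29.02, 35.6, 30.5 and 32.4 CPM in knockouts 1 to 5, with a log2 fold change of −0.11 (adjusted p by edgeR = 0.498).

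Both tested activators, which can cap the core in place of the regulatory particle, had a log2 fold change below 0; with library totals alone, Psme3 was above 0. Psme4 at chr11:30771775-30880361 encodes PA200, which binds the core in the nucleus, and it had the largest change of the members. Psme4 was at 223, 131, 212, 169 and 229 CPM in heterozygotes 1 to 5 and at 170.2, 156, 171, 145 and 156 CPM in knockouts 1 to 5. Heterozygotes 1, 3 and 5 were above every knockout, heterozygote 4 lay within their range, heterozygote 2 lay below them, and the knockouts were close together. Group values were 193 ± 42.03 CPM in heterozygotes and 159.7 ± 10.7 CPM in knockouts (SD, n = 5). The log2 fold change was −0.27 (standard error 0.138, 95% interval −0.57 to 0.02, unadjusted p = 0.0658, adjusted p by edgeR = 0.185). It was called lower without heterozygote 2 (−0.38, edgeR adjusted p = 0.0181) and by limma-voom with sample weights (−0.35, adjusted p = 0.0413), and in no other alternative. Psme3 was at 101, 108, 109, 99.1 and 92.98 CPM in heterozygotes 1 to 5 and at 105, 93.3, 95.7, 98.7 and 103 CPM in knockouts 1 to 5. Psme3 encodes the nuclear activator PA28γ, and its log2 fold change was −0.04 (adjusted p by edgeR = 0.781). RefSeq's 30 bases around the Psme4 start at chr11:30771758-30771787 (plus strand) hold the antioxidant response element core on the opposite strand, in capitals.
Psme4: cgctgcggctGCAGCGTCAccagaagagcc

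The members below the filter were Psma8 and Psmb11, tissue-specific subunits of the testis and of the thymic cortex. Psma8 had 4 to 24 counts per animal, or 1.01 ± 0.374 CPM in heterozygotes and 0.795 ± 0.480 CPM in knockouts (SD, n = 5). Psmb11 had 4 counts in all, in heterozygote 3, and 0 in the other 9 animals, where the limit of 3 counts came to at most 0.368 CPM.

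**Figure D3:**
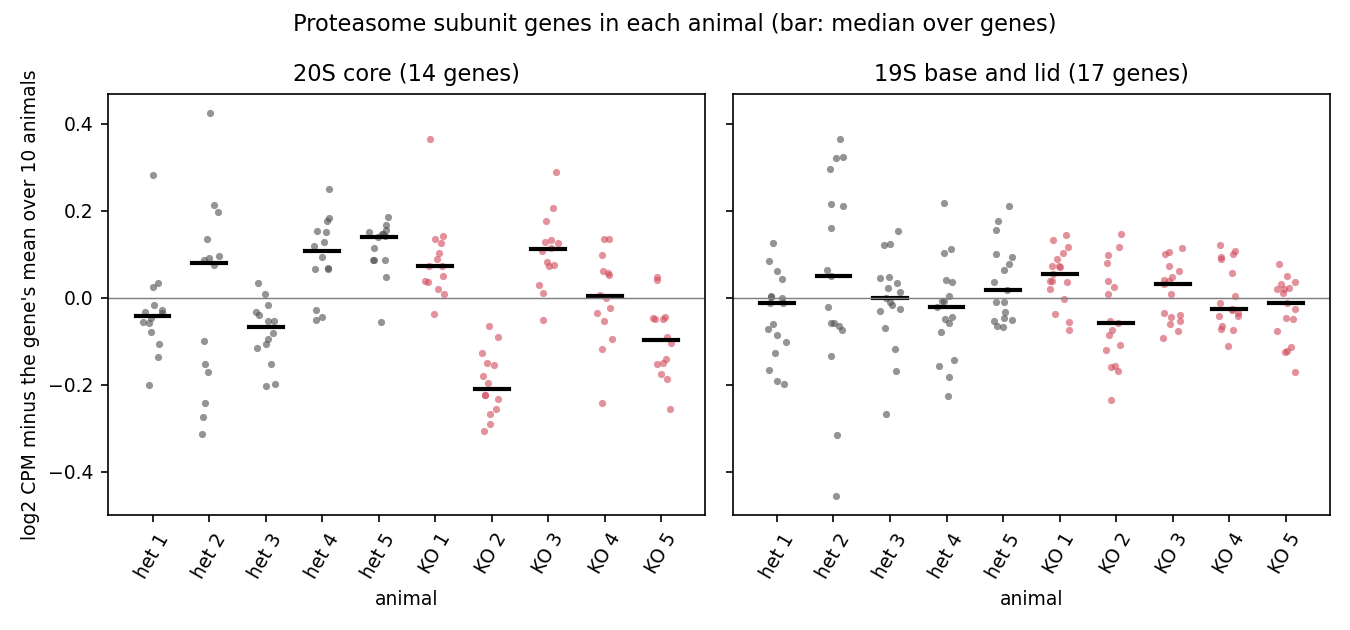
Log2 CPM of each proteasome subunit gene minus its own mean over the 10 animals (y axis), for each animal (x axis), with bars at the median over genes. The core genes lie together below 0 in knockout 2 and above it in heterozygote 5.

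The summed level of the members differed less between the groups than between animals of a group. Summed over all members, levels were 5968, 6228, 5973, 6124 and 6377 CPM in heterozygotes 1 to 5 and 6286, 5645, 6215, 6008 and 5820 CPM in knockouts 1 to 5. The groups overlapped, at 6134 ± 174 and 5995 ± 268 CPM (SD, n = 5). For the 14 tested core genes, the median log2 deviation from each gene's own mean ran from −0.07 to 0.14 in heterozygotes and from −0.21 (knockout 2) to 0.11 (knockout 3) in knockouts. All 14 core genes were below their own mean in knockout 2, and 1 of 14 was in heterozygote 5 and in knockouts 1 and 3. The 17 genes of the regulatory particle varied less, with medians from −0.06 to 0.05 over the 10 animals. The median core level per length divided by that of the regulatory particle was 1.59 ± 0.141 in heterozygotes and 1.54 ± 0.1001 in knockouts (SD, n = 5). Over all tested genes, Spearman's rho between gene length and deviation was −0.14 ± 0.122 in heterozygotes and 0.17 ± 0.176 in knockouts (SD, n = 5), highest in knockout 2 (0.43) and lowest in heterozygote 2 (−0.27). Within the members it was 0.62 and −0.16 in those animals, and it was lowest in heterozygote 4 (−0.46) and knockout 3 (−0.44). The sign within the members was opposite to that over all genes in heterozygote 1 (0.27 and −0.05), knockout 3 (−0.44 and 0.07) and knockout 4 (−0.11 and 0.16). The part of gene length in the deviations of the core was not tested. These rho values describe genes within one library, which are not independent replicates.

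Within a group, the members were steady. The median within-group SD of log2 CPM was 0.128 over the 36 members, 0.134 over the core and 0.104 over the regulatory particle, against 0.236 over all tested genes. The median coefficient of variation was 9.26% in heterozygotes and 7.36% in knockouts, against 17.6% and 13.7% over all tested genes. Spread falls with abundance, and the members were not matched to other genes of their level.

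**Figure D4:**
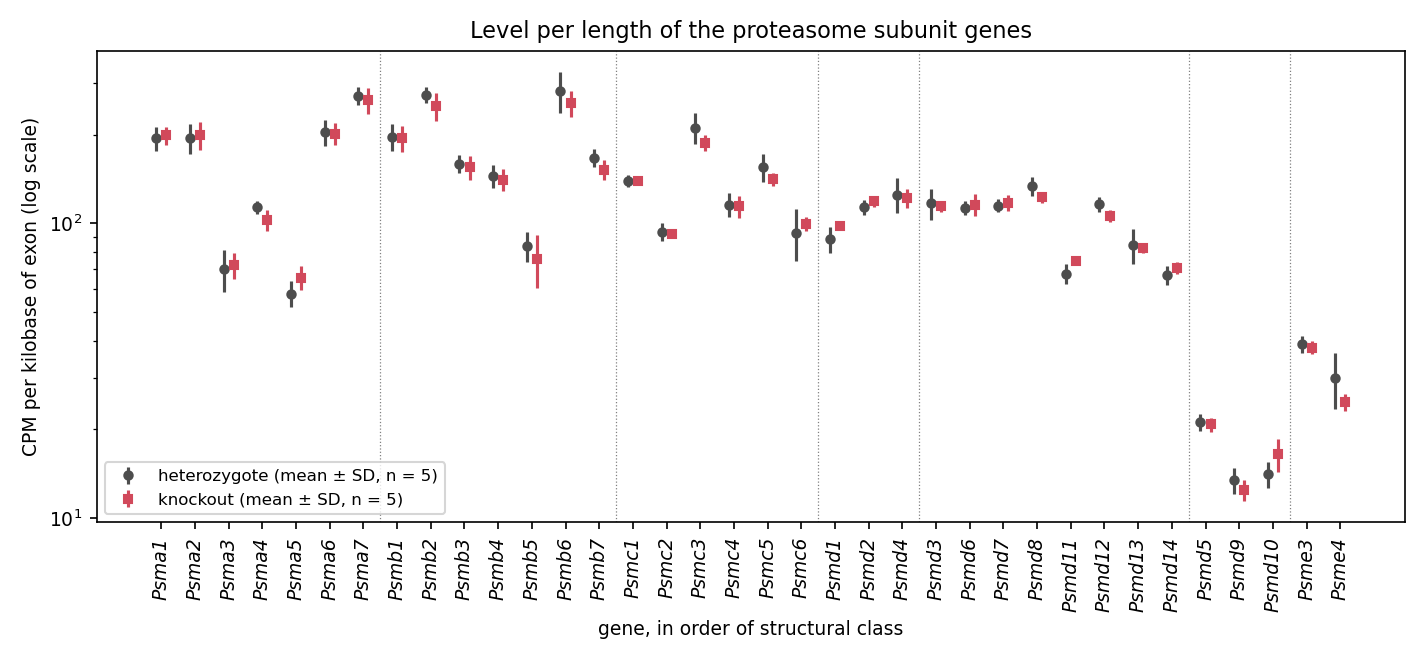
Level of each tested proteasome subunit gene in CPM per kb of exon length (log axis), with the mean and SD of 5 animals in each group. The base chaperones Psmd9 and Psmd10 are lowest and Psmb6, Psmb2 and Psma7 highest.

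Levels per length differed far more between subunits than between groups. The highest was Psmb6, at 281 ± 44.6 CPM per kb in heterozygotes and 256 ± 26.7 in knockouts (SD, n = 5), with Psmb2 (273 in heterozygotes) and Psma7 (271) within its spread. Psma7, an alpha-ring subunit, was the highest in knockouts, at 262 ± 26.7 CPM per kb. The lowest tested member was Psmd9, at 13.5 ± 1.35 CPM per kb in heterozygotes and 12.5 ± 1.04 in knockouts, followed by Psmd10 at 14.1 ± 1.42 CPM per kb in heterozygotes and 16.5 ± 2.08 in knockouts. Psmd9 and Psmd10 did not differ beyond their spread in heterozygotes. Within the core, whose subunits are present in equal copies in the particle, the highest level was 4.87 times the lowest in heterozygotes and 4.01 times in knockouts, with Psma5 the lowest at 57.8 ± 5.79 CPM per kb in heterozygotes and 65.5 ± 5.97 in knockouts. Class medians in heterozygotes and knockouts were 195 and 199 CPM per kb for the alpha ring and 167 and 155 for the beta ring. They were 128 and 127 for the ATPases, 114 and 119 for the rest of the base, and 114 and 110.2 for the lid. The base chaperones were at 14.1 and 16.5, and the activators at 34.5 and 31.4. The order of the 36 genes was nearly the same in both groups (Spearman's rho 0.986 across genes, which are not replicates), and no gene moved by more than 4 ranks.

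Among the interferon-induced counterparts, which the rule left out because 1 heterozygote was high in them, Psme1 was lower in every knockout. Psmb8, Psmb9 and Psmb10 replace the catalytic subunits in the immunoproteasome, and Psme1 and Psme2 encode the activator PA28. All 5 had a log2 fold change below 0 and 3 were called lower, where 8.64% of all tested genes were called lower. The groups did not overlap for 2, Psme1 and, by a near tie, Psmb10, where 14.7% of all tested genes had groups apart in either direction. The heterozygote behind the rule, heterozygote 3, was the highest animal in all 5. The shared direction and these counts are therefore not independent of how the 5 were set apart. The calls of Psmb8 and Psmb9 were lost without heterozygote 3, and also when any single knockout was left out. Psme1 was at 162, 210.3, 263, 151 and 180.4 CPM in heterozygotes 1 to 5 and at 105, 108, 104, 124 and 113 CPM in knockouts 1 to 5. Every knockout was below every heterozygote, at 193 ± 45.2 CPM in heterozygotes and 111 ± 8.40 CPM in knockouts (SD, n = 5) or 0.573-fold. Psme1 at chr14:55578494-55581527 had a log2 fold change of −0.80 (standard error 0.138, 95% interval −1.10 to −0.51, adjusted p by edgeR = 0.00106). Without heterozygote 3, the highest of these animals, it was −0.67 (edgeR adjusted p = 0.000921). Psme2 was at 60.02, 63.2, 154, 66.5 and 74.3 CPM in heterozygotes 1 to 5 and at 59.97, 50.03, 56.9, 61.2 and 55.3 CPM in knockouts 1 to 5. Apart from heterozygote 3 the groups lay close together for Psme2, the partner of Psme1 (log2 fold change −0.56, adjusted p by edgeR = 0.0923). Without that animal it was −0.22 (adjusted p = 0.157), and DESeq2 over all animals called it (adjusted p = 0.0408).

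Psmb8 was at 2.39, 3.19, 81.2, 6.55 and 5.41 CPM in heterozygotes 1 to 5 and at 2.29, 2.83, 3.12, 3.69 and 1.75 CPM in knockouts 1 to 5. Heterozygote 3 was far above the other animals, and the call of Psmb8 (log2 fold change −2.84, adjusted p by edgeR = 0.0356) was lost without it (−0.67, adjusted p = 0.187). Psmb9 was at 0.882, 0.491, 46.4, 1.78 and 1.77 CPM in heterozygotes 1 to 5 and at 1.15, 0.687, 0.780, 1.64 and 0.339 CPM in knockouts 1 to 5. Its call (log2 fold change −3.50, adjusted p by edgeR = 0.0449) was lost in the same way (−0.46, adjusted p = 0.580). Each of these calls was lost in 10 of the 19 alternatives that gave an adjusted p. Psmb10 was at 42.00, 53.3, 118, 41.5 and 40.5 CPM in heterozygotes 1 to 5 and at 40.5, 35.1, 36.00, 33.97 and 34.2 CPM in knockouts 1 to 5. Psmb10 was lower in every knockout, but only by a near tie: 40.503 CPM in knockout 1 and 40.537 CPM in heterozygote 5. A single count in knockout 1 was 0.104 CPM. Psmb10 did not pass (log2 fold change −0.71, adjusted p by edgeR = 0.0668). It was −0.30 without heterozygote 3 (adjusted p = 0.0878), and it was called in 4 alternatives: DESeq2 and the fits without heterozygote 1, 4 or 5. The 8 macrophage and leukocyte markers in the table summed to 14.0 to 38.2 CPM in heterozygotes and 8.71 to 11.2 CPM in knockouts, with 4 of 4 tested markers below 0 and 1 called lower (Csf1r). Their part in the level of the interferon-induced subunits was not tested. Among the 5 interferon-induced genes, only Psme1 held the interferon response element core that was searched. The same core was in 3 of 31 members (Psmb3, Psmd4 and Psmd9), none of them called. A match describes letters and not a bound site. In Psme1 the core lay on the opposite strand from 10 bases after its RefSeq start, within chr14:55578493-55578522 (plus strand).
Psme1: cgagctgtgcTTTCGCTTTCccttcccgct

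**Figure D5:**
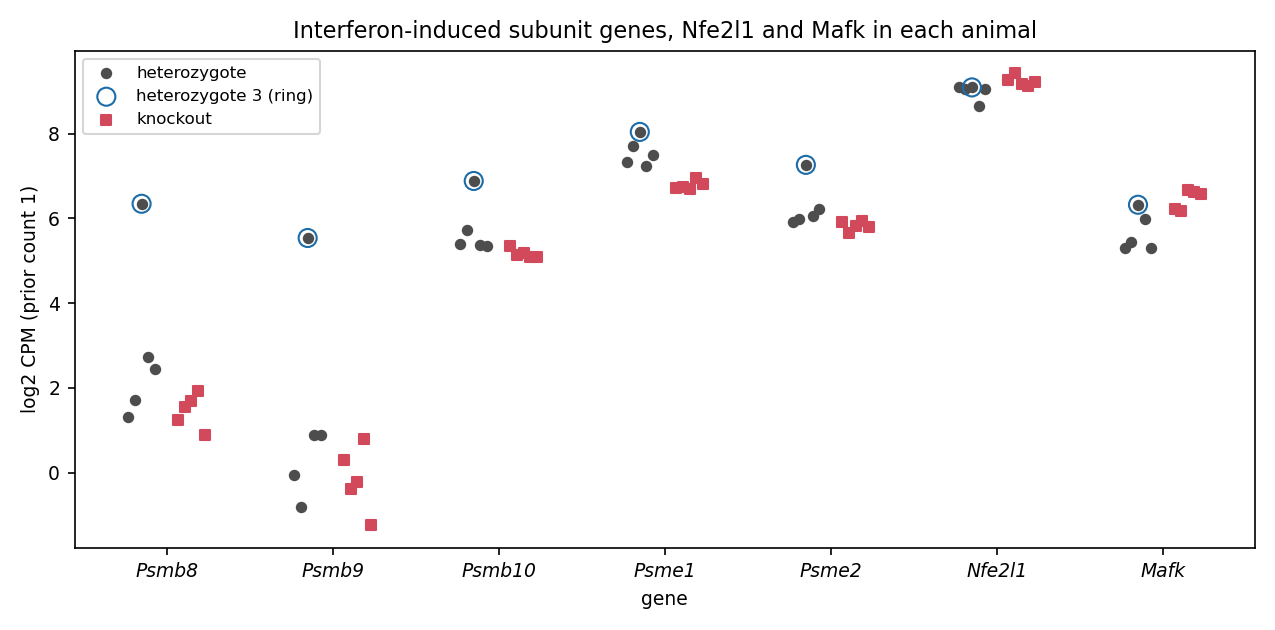
Log2 CPM (y axis) in each animal of the 5 interferon-induced subunit genes, Nfe2l1 and Mafk. Heterozygote 3 is the highest point for Psmb8, Psmb9, Psmb10, Psme1 and Psme2. The groups are apart for Psme1, Nfe2l1 and, by a near tie, Psmb10.

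Other genes of the pathway were taken from a list by function of 45 names, of which 42 were in the table under that name and all 42 were tested. Of these, 1 rose, 0 fell, and 6 had an unadjusted p below 0.05, with 28 above and 14 below 0 and a median log2 fold change of 0.08. Over all tested genes, 18.9% were called and 32.4% had an unadjusted p below 0.05. The gene that rose was Mafk, a small MAF protein that pairs with the products of Nfe2l1 and Nfe2l2 on DNA. Mafk was at 39.5, 43.2, 79.97, 63.2 and 39.4 CPM in heterozygotes 1 to 5 and at 74.9, 72.02, 102, 98.2 and 95.6 CPM in knockouts 1 to 5. Every knockout was above heterozygotes 1, 2, 4 and 5, and heterozygote 3 lay above knockouts 1 and 2. Mafk was at 53.04 ± 17.99 CPM in heterozygotes and 88.6 ± 14.1 CPM in knockouts (SD, n = 5), 1.68-fold higher (log2 fold change 0.75, standard error 0.191, 95% interval 0.34 to 1.16, adjusted p by edgeR = 0.0138).

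Nfe2l1 encodes the factor that raises proteasome genes when proteasome activity falls. Nfe2l1 was at 549.7, 529, 546, 402 and 529 CPM in heterozygotes 1 to 5 and at 614, 687, 579, 556 and 592 CPM in knockouts 1 to 5. Every knockout was above every heterozygote, at 511 ± 61.9 CPM in heterozygotes and 605 ± 50.04 CPM in knockouts (SD, n = 5). The log2 fold change was 0.24 (standard error 0.101, unadjusted p = 0.0297), and it did not pass after adjustment (adjusted p by edgeR = 0.110), except with library totals alone (0.33, adjusted p = 0.0195). With the mean log2 CPM of the endothelial markers as a covariate, the log2 fold change of Nfe2l1 was 0.11 (adjusted p by edgeR = 0.688). The related Nfe2l2, which responds to oxidants, had a log2 fold change of 0.41 (adjusted p by edgeR = 0.186). None of 6 assembly factors, 20 regulators and receptors, 6 ubiquitin and E1 genes and 2 subunits outside the naming rule passed. The subunits outside the rule are the receptor Adrm1 (log2 fold change 0.03) and Shfm1 (0.25), a small lid subunit.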

How the data were processed

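The deposited values are raw read counts, whole numbers per gene, which per the file headers came from featureCounts 1.5.1 on 4 threads and a UCSC annotation of build mm10. The submitters' processing notes list STAR 2.5.3a, CASAVA 1.8 and Subread 1.5.2, while the alignment names in the header are those of another aligner by default, so the aligner is uncertain. No strand or multi-mapping option is recorded. The 10 sample columns were matched by title; the other 4 count columns match no sample and were not used. Replicates differed by more than sampling noise in all 20 pairs (chi-square per degree of freedom 10.8 to 37.5, genes with at least 20 counts).

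Genes were kept by filterByExpr (minimum count 10, minimum total 15), scaled by TMM (0.944 to 1.05) and tested with edgeR 4.0.16 (R 4.3.3), calling at an adjusted p below 0.05 over 11870 genes. The 95% intervals use the test's degrees of freedom. Log2 CPM uses a prior count of 1. P-values set the difference between the groups against the spread between the animals of a group, estimated with information shared across genes. The procedure was tested on simulated data. DESeq2 1.42.0, limma 3.58.1 (voom with sample weights), other scalings and filters, covariates, a replicate block and leaving out each animal were alternatives. The labels give no sex or batch. Y-linked transcripts were near absent in heterozygotes 3 and 5 and knockout 5, and the sum of their log2 CPM was also used as a covariate.

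Members, lists and motifs were chosen with earlier results of these data known. Genes named in full were Actn2, the called genes, the highest and lowest member of each structural class, the 3 catalytic subunits, members below the filter, the highest and lowest per length, and Nfe2l1. The interferon-induced subunits, Psmd2, Psmd9, Psmd14, Nfe2l2, Adrm1 and Shfm1 were added to that rule. A result for 1 gene of the pathway list is not reported here.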

Additional observations from a re-analysis of the deposited data

Results flagged for a closer look

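Of 98 sets of 5 values (log2 CPM of one gene, or a measure of the libraries, in one group), 10 had an animal whose gap to its nearest neighbour was more than 0.71 of the whole range. Chance gives about 1 in 20, or 4.9, if the sets are independent. These sets share the same animals. They also include the interferon-induced subunits, which the rule left out because 1 heterozygote was high in them. The 10 were therefore not read against chance. Among the members, Psmc5, a base ATPase, stood high in knockout 1 at 7.61 (next 7.48). Psmc3 stood high in heterozygote 2 at 8.71 (next 8.39). Knockout 2 was low for Psma3, an alpha-ring subunit, at 6.41 (next 6.69), and for Psmc4, another base ATPase, at 7.13 (next 7.37). Heterozygote 3 was high for 4 interferon-induced subunits: Psmb8 at 6.35 (next 2.73), Psmb9 at 5.54 (next 0.895), Psmb10 at 6.88 (next 5.74) and Psme2 at 7.26 (next 6.22). Nfe2l1 was low in heterozygote 4 at 8.65 (next 9.05). The total count of heterozygote 1 was 25237696, where the next was 10309615.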

How the results depend on the processing

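Over 720 combinations of a tested member and an alternative, 668 kept direction and side of the threshold, 50 changed sign and 2, both for Psme4, became calls. No value that changed sign was larger than 0.0805 in size. Members called higher stayed at 0 throughout. Members called lower were 0, except 1 with voom, and 0 to 1 when single animals were left out. The cause of each change was not tested.

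With library totals alone, 13 members turned above 0: Psmb3 0.0345, Psmd3 0.0519, Psme3 0.0407, Psma6 0.0625, Psmc1 0.0721, Psmb1 0.0594, Psmd5 0.0540, Psma7 0.0304, Psmb4 0.0384, Psmd4 0.0398, Psmc2 0.0557, Psmc4 0.0639 and Psmd13 0.0523, and their median moved to 0.0532. With the endothelial covariate Psma6 was 0.0415 and Psmb1 0.0805. With voom, Psma6 was 0.0095, Psmb1 0.00696, Psmb4 0.0104, Psmd4 0.0171, Psmc4 0.0319 and Psmd13 0.00835. With single animals left out, log2 fold changes ran from −0.0893 to 0.0228 for Psmd3, −0.0547 to 0.0304 for Psma6, −0.0229 to 0.114 for Psma3, −0.0259 to 0.0118 for Psmc1, −0.0152 to 0.0807 for Psma2, −0.0549 to 0.0331 for Psmb1, −0.0561 to 0.0073 for Psmd5, −0.0793 to 0.00622 for Psma7, −0.0800 to 0.00588 for Psmb4, −0.0936 to 0.0341 for Psmd4, −0.0471 to 0.0214 for Psmc2, −0.0588 to 0.0353 for Psmc4, −0.0205 to 0.0663 for Psma1 and −0.0784 to 0.0570 for Psmd13.

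Pathway genes outside the members had 3 called higher with library totals alone (Mafk, Nfe2l1 and Nploc4) and 1 each with single animals left out. Those called lower were 1 with voom (Psmg2) and 0 to 1 with animals left out (Psmg2 without heterozygote 2, Psmg1 without heterozygote 4). Of the interferon-induced subunits, 1 (Psme1) was called lower with the Y-linked covariate, the endothelial covariate and voom, 3 with DESeq2 (Psmb10, Psme1 and Psme2), and 1 to 4 with animals left out. Psme1 and Mafk were called in all 20 alternatives. Over all tested genes, calls were 2241, and 1086 with the endothelial covariate.

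With the replicate number as a block, 0 members were called, as without it, and the interferon-induced subunits called lower went from 3 to 1, Psme1. All-gene calls went from 2241 to 2182. Same-numbered animals correlated at −0.06 to 0.19 in their deviations, above 0.1 in 3 of 5 numbers, so the numbers were not taken as pairs, and 2 of 5 correlated best with their own number.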
